A study of Bos taurus with 31 samples.

Results

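Genes of lipogenesis and triglyceride synthesis were examined in the liver of dairy cows fed 4 rations. The set held 10 genes (*SREBF1*, *MLXIPL*, *FASN*, *ACACA*, *SCD*, *ELOVL6*, *GPAM*, *DGAT1*, *DGAT2* and *ME1*), which were chosen by symbol from the 24616 genes of the raw count table. All 10 had at least 20 reads summed over all cows and so belonged to the 15916 genes tested. The study asked whether glyphosate (GLY) residues in feed act on the liver, and whether the concentrate feed proportion of the ration alters this. Lactating German Holstein cows received either a ration with peas, wheat grain and straw that carried residues of the GLY formulation Roundup Record (GLY groups) or a control ration (CON groups). Within each treatment, concentrate made up 60% (HC) or 30% (LC) of the dry matter. Liver was taken by puncture biopsy in week 16, and mRNA was sequenced from 8 cows in CONHC, 8 in CONLC, 8 in GLYHC and 7 in GLYLC, with 1 library per cow. The samples of a further GLYLC cow had been lost. All groups shared breed and maize silage, grass silage and straw as forage, and HC rations held less silage than LC rations, so that concentrate and forage changed together. The control rations also carried traces of GLY, and GLYHC cows, which ate more dry matter, took in more GLY than GLYLC cows.

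Lipogenesis builds fatty acids from acetyl-CoA, and triglyceride synthesis attaches them to a glycerol backbone for storage in lipid droplets or for export. In ruminants, most fatty acids are made in adipose tissue and in the lactating mammary gland, while the liver makes comparatively little and chiefly takes up and esterifies fatty acids released from body fat. The transcription factors SREBP-1c, encoded by *SREBF1*, and ChREBP, encoded by *MLXIPL*, are known activators of the pathway, in response to insulin and to sugar metabolites respectively.

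The libraries held 11675775 to 36675542 gene-assigned reads, and the median cow had 19781078. Levels are given as CPM, the count scaled to a common library total of assigned reads, after TMM scaling of the libraries, and as CPM takes no account of transcript length they are not compared between genes. All 7 hepatocyte markers were read in each group, and their summed level was 93563 to 184740 CPM. Markers of other cell types were read in uneven amounts, and where these reads came from was not tested. The summed level of 6 skeletal muscle markers was between 0.956 and 2814 CPM, and GLYLC cow 912 held the highest summed level of intestinal markers, 324.7 CPM. Of 5 adipocyte markers, 4 were in the table (*ADIPOQ*, *LEP*, *PLIN1* and *FABP4*), with a summed level of 1.79 to 9.81 CPM in 27 cows and of 19.6 to 83.0 CPM in the other 4 cows. As biopsies hold several cell types, fewer cells of a type and less RNA per cell cannot be told apart.

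The spread between cows differed widely between the genes. *FASN* (ENSBTAG00000015980), the fatty acid synthase that assembles palmitate from malonyl-CoA, varied most, with a coefficient of variation of 65.1% over the 31 cows and 15.2 times the CPM of the lowest cow in the highest. Without GLYLC cow 544 these values were 53.8% and 9.78 times, and the ratio was then below those of *SCD*, 11.1, and *ME1*, 11.01. *MLXIPL* (ENSBTAG00000009153) varied least, with a coefficient of variation of 14.6% and a range from 54.4 to 107.5 CPM. *SCD*, *ACACA*, *SREBF1* and *ELOVL6* lay between, at 47.0%, 42.6%, 34.9% and 31.2%. The genes of glycerolipid assembly were steadier, with 26.3% for *GPAM*, 25.0% for *DGAT1* and 22.7% for *DGAT2*. *ME1* also varied by 48.3%, but it was read only 4 to 52 times per cow and 737 times in all, while each of the other 9 genes had at least 159 reads in every cow. Counting error therefore weighs more on *ME1* than on any other gene of the set.

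**Figure D1:**
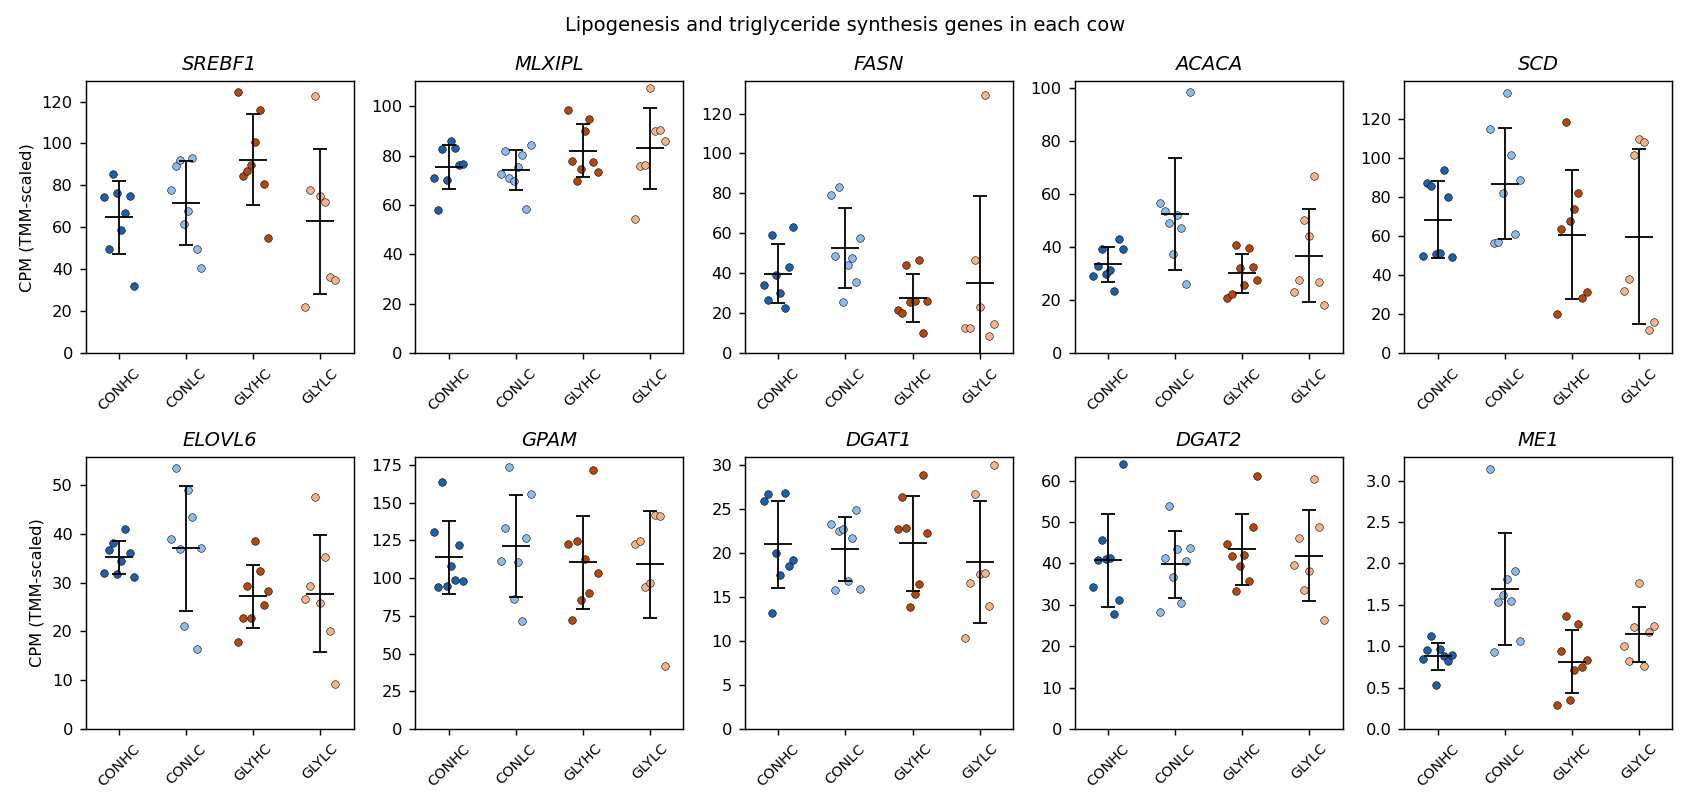
Level of each of the 10 genes in CPM (linear axes from 0) in the cows of the 4 feeding groups; points are cows, bars are the group mean and SD (n = 8, 8, 8 and 7), with the lower *FASN* bar of GLYLC cut at 0. *ME1* points of CONLC lie mostly above those of CONHC, the *FASN* mean and SD of GLYLC are drawn up by 1 cow at 129.4 CPM, and *MLXIPL*, *DGAT1* and *DGAT2* overlap in all groups.

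*ME1* (ENSBTAG00000005681) encodes the cytosolic malic enzyme, which supplies NADPH for fatty acid synthesis. It was the gene of the set with a called difference, and the direction was lower in HC than in LC cows. In CONHC it had a lowest, median and highest level of 0.531, 0.887 and 1.12 CPM, and in CONLC of 0.930, 1.58 and 3.15 CPM. In GLYHC the corresponding levels were 0.286, 0.790 and 1.36 CPM, and in GLYLC they were 0.765, 1.17 and 1.76 CPM. The CON groups overlapped in few cows, as 6 of 8 CONLC cows lay above every CONHC cow, whereas 1 of 7 GLYLC cows lay above every GLYHC cow. Over all cows, *ME1* was at 0.844 ± 0.287 CPM in HC (SD, n = 16) and at 1.44 ± 0.598 CPM in LC (SD, n = 15). With treatment as a covariate, *ME1* fell in HC with a log2 fold change of -0.71 (standard error 0.19), which is 0.609 times the LC level, at an adjusted p of 0.0768 (edgeR quasi-likelihood test, Benjamini-Hochberg adjustment over all 15916 genes). Calling required both an unadjusted p under 0.05 and an adjusted p under 0.1. By this rule 1 of the 10 genes was called in HC versus LC, against 1.45% of all genes tested, and 0.773% of all genes were called lower in HC. The call lay close to its threshold. It was kept in 22 of the 31 fits that left out 1 cow and lost in the other 9, with adjusted p from 0.0529 to 0.120 over the 31 fits and log2 fold changes from -0.78 to -0.61. CONLC cow 103 had the highest *ME1* level, 3.15 CPM, together with 434 CPM of *COL1A1* and 1287 CPM of summed muscle markers, and without this cow the log2 fold change was -0.61 (adjusted p = 0.117, edgeR quasi-likelihood test). The part of these reads in the *ME1* level was not tested.

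*ACACA* (ENSBTAG00000017567) encodes acetyl-CoA carboxylase 1, which makes the malonyl-CoA used by FASN and is the committed step of fatty acid synthesis. Its lowest, median and highest levels were 23.4, 32.2 and 43.1 CPM in CONHC, 25.9, 50.7 and 98.7 CPM in CONLC, 20.9, 29.8 and 40.7 CPM in GLYHC and 18.3, 27.7 and 66.8 CPM in GLYLC. HC cows formed a narrow band, and 6 of 8 CONLC cows lay above every CONHC cow, although the lowest LC cows lay within or below the HC range. The log2 fold change in HC versus LC was -0.47 (standard error 0.17), with an unadjusted p of 0.00794 and an adjusted p of 0.182 in edgeR's quasi-likelihood test, so that *ACACA* did not pass. Together with *ME1*, 2 of the 10 genes had an unadjusted p under 0.05, which was the case for 13.7% of all genes.

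*FASN* had lowest, median and highest levels of 22.6, 36.8 and 63.0 CPM in CONHC, 25.4, 48.2 and 83.2 CPM in CONLC, 10.2, 25.8 and 46.8 CPM in GLYHC and 8.51, 14.9 and 129.4 CPM in GLYLC. GLYLC thus held both the lowest and the highest cow of the study, and its median lay below those of the other groups. The log2 fold change of *FASN* in HC versus LC was -0.38 with a standard error of 0.29 (adjusted p = 0.609, edgeR quasi-likelihood test), and without GLYLC cow 544 it was -0.01. The interval of 2 standard errors reached from -0.96 to 0.20, which leaves sizeable differences in the direction of lower HC levels unresolved.

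*SCD* (ENSBTAG00000045728), the stearoyl-CoA desaturase that introduces the double bond of oleic acid, had medians of 65.7 CPM in CONHC, 85.5 in CONLC, 65.9 in GLYHC and 38.3 in GLYLC. The cows of GLY groups were widely scattered, from 20.1 to 118.6 CPM in GLYHC and from 12.0 to 109.8 CPM in GLYLC, while CONHC cows lay between 49.3 and 93.8 CPM. Its log2 fold change in HC versus LC was -0.17 (standard error 0.27). *ELOVL6* (ENSBTAG00000010564), which elongates palmitate to stearate, had medians of 35.3, 38.03, 26.8 and 26.6 CPM in CONHC, CONLC, GLYHC and GLYLC. Its HC versus LC log2 fold change was -0.05 (standard error 0.16), with an interval of 2 standard errors from -0.37 to 0.27. Neither difference passed the test (adjusted p = 0.857 for *SCD* and 0.940 for *ELOVL6*, edgeR quasi-likelihood test).

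The regulators and the acyltransferases did not pass the test in HC versus LC either. The log2 fold change was 0.19 (standard error 0.19) for *SREBF1* (ENSBTAG00000007884) and 0.00 (standard error 0.07) for *MLXIPL*, and for the latter the interval of 2 standard errors reached from -0.14 to 0.15. *GPAM* (ENSBTAG00000011917) encodes the mitochondrial glycerol-3-phosphate acyltransferase that starts glycerolipid assembly, and its log2 fold change was -0.04 (standard error 0.14). *DGAT1* (ENSBTAG00000026356) and *DGAT2* (ENSBTAG00000001154) encode the acyltransferases that complete the triglyceride. Their log2 fold changes were 0.09 (standard error 0.13) and 0.04 (standard error 0.11). For *MLXIPL*, *GPAM*, *DGAT1* and *DGAT2* the intervals of 2 standard errors stayed within -0.32 to 0.35. Over the 10 genes, 4 log2 fold changes were above and 6 below 0, with a median of -0.05, beside a median of -0.01 over all genes tested.

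The concentrate comparison was then taken within each treatment, in 1 model with the 4 groups. In CONHC versus CONLC, 0 of the 10 genes were called by edgeR's quasi-likelihood test, as were 0.0% of all genes. DESeq2 on all cows also called 0 of the 10, and 27 of the 15916 genes. In edgeR, an unadjusted p under 0.05 was found for 2 of the 10 genes and for 5.96% of all genes. These were *ME1*, with a log2 fold change of -0.94 (standard error 0.26, unadjusted p = 0.00097, adjusted p = 0.395, edgeR), and *ACACA*, with -0.65 (standard error 0.23, unadjusted p = 0.00859, adjusted p = 0.671, edgeR). Fitted to only these 2 groups, DESeq2 called *ACACA* (log2 fold change -0.65, unadjusted p = 0.00154, adjusted p = 0.0912). It called 81 of the 15033 genes in this fit. *ME1* had an unadjusted p of 0.000282 in that DESeq2 fit, which gave it no adjusted p, so that it could not be called. *FASN* was at -0.40, *SCD* at -0.34 and *SREBF1* at -0.14 on the log2 scale.

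In GLYHC versus GLYLC, edgeR called 0 of the 10 genes and 0.201% of all genes. DESeq2 on all cows called 0 of the 10 and 143 of the 15916 genes. In edgeR, *SREBF1* had an unadjusted p under 0.05, which held for 1 of the 10 genes and for 12.5% of all genes. Its lowest, median and highest levels were 54.8, 88.3 and 124.6 CPM in GLYHC and 22.2, 71.9 and 122.7 CPM in GLYLC. The ranges overlapped almost fully at the upper end, and the low GLYLC cows had no counterpart in GLYHC. The log2 fold change of *SREBF1* was 0.55 (standard error 0.26, unadjusted p = 0.0436, adjusted p = 0.382, edgeR quasi-likelihood test). The log2 fold change was -0.47 for *ME1* (standard error 0.26, unadjusted p = 0.0815), -0.28 for *ACACA*, -0.36 for *FASN* and 0.03 for *SCD*. The *FASN* and *ACACA* values rested on GLYLC cow 544, without which *FASN* was at 0.47 in place of -0.36 and *ACACA* at -0.07 in place of -0.28.

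**Figure D2:**
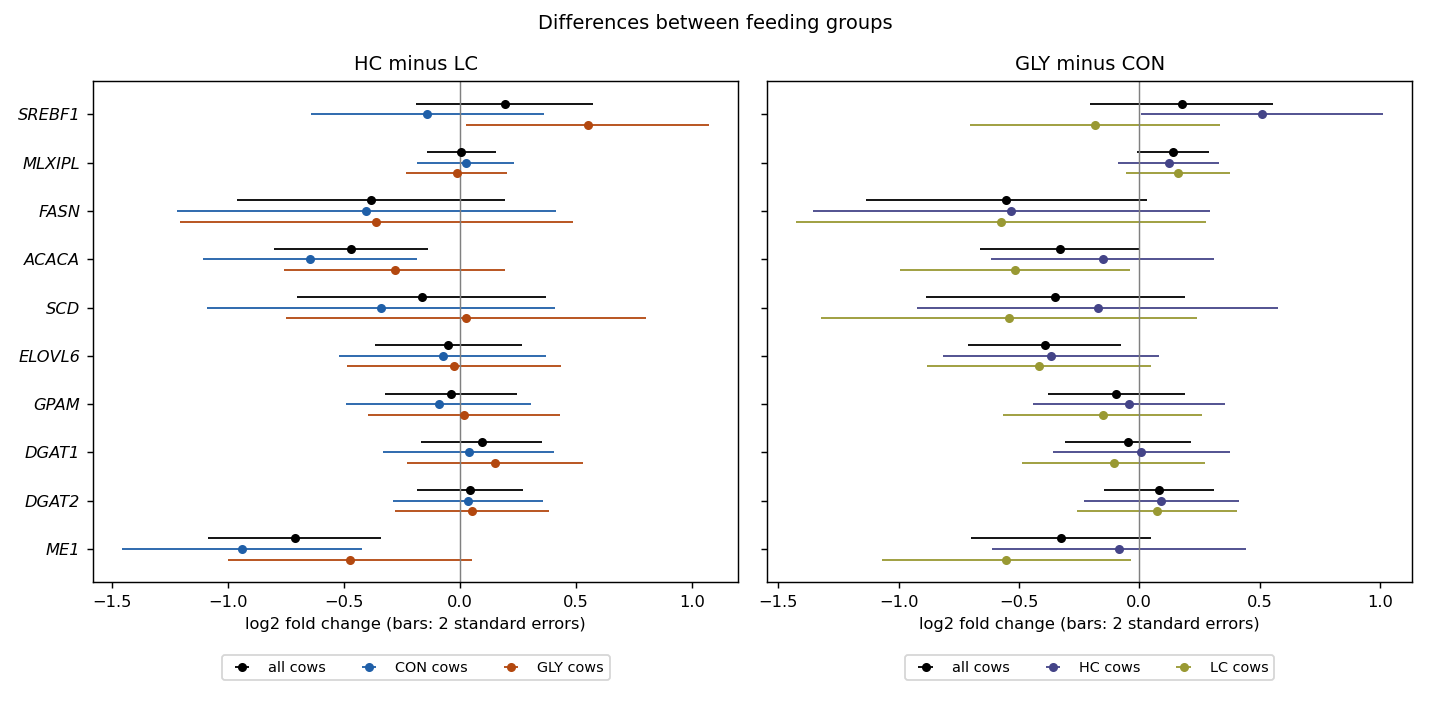
Log2 fold changes of the 10 genes from edgeR, with bars of 2 standard errors, for HC minus LC (left; all cows, CON cows and GLY cows) and for GLY minus CON (right; all cows, HC cows and LC cows). On the left, the bars of *ME1* and *ACACA* over all cows and in CON cows lie wholly below 0, and that of *SREBF1* in GLY cows lies above 0. On the right, those of *ELOVL6* over all cows and of *ACACA* and *ME1* in LC cows lie below 0, and that of *SREBF1* in HC cows lies just above 0. The other bars cross 0, and the comparisons share cows.

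In GLY versus CON with concentrate as a covariate, DESeq2 on all cows called 0 of the 10 genes and 1 of the 15916 genes. EdgeR's quasi-likelihood test called 0 of the 10 genes and 0.0% of all genes. Of the 10 log2 fold changes, 7 were below and 3 above 0, with a median of -0.21, beside a median of 0.00 over all genes tested. *ELOVL6* had an unadjusted p under 0.05, 1 gene of the 10, against 3.92% of all genes. It was at 27.4 ± 9.08 CPM in GLY (SD, n = 15) and 36.1 ± 9.11 CPM in CON (SD, n = 16), with ranges of 9.28 to 47.6 and 16.4 to 53.6 CPM that overlapped over most of their length. Its log2 fold change was -0.39 (standard error 0.16, unadjusted p = 0.0191, adjusted p = 1.0, edgeR). *FASN* was at 31.2 ± 29.9 CPM in GLY and 46.2 ± 18.2 CPM in CON, with a log2 fold change of -0.55 (standard error 0.29, unadjusted p = 0.0674), and of -0.93 without GLYLC cow 544. The remaining enzymes of fatty acid synthesis were also on the lower side without passing the test, with -0.33 for *ACACA*, -0.32 for *ME1* and -0.35 for *SCD*. *SREBF1* was at 0.18, *MLXIPL* at 0.14, *DGAT2* at 0.08, *DGAT1* at -0.05 and *GPAM* at -0.10, none of which passed the test.

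In HC cows alone, GLYHC versus CONHC gave 0 of 10 genes called and 0.0% of all genes, with 0 of the 10 at an unadjusted p under 0.05 in edgeR against 2.92% of all genes. DESeq2 on all cows and on only these groups also called 0 of the 10, beside 0 of the 15916 and 5 of the 14987 genes. An unadjusted p under 0.05 was found for 1 of the 10, *SREBF1*, by DESeq2 on all cows (unadjusted p = 0.0423). In that fit 463 of the 15916 genes had such a p. DESeq2 on only these groups gave 635 of its 14987 genes such a p, and 3 of the 10, *ELOVL6*, *SREBF1* and *FASN*. Their unadjusted p were 0.00427, 0.00566 and 0.0454 and their adjusted p 0.749, 0.807 and 0.999 (DESeq2). *SREBF1* came nearest in edgeR, with a log2 fold change of 0.51 (standard error 0.25, unadjusted p = 0.0522, adjusted p = 1.0, edgeR). CONHC cows had a median of 70.7 CPM and a highest level of 85.5 CPM, which the median of GLYHC, 88.3 CPM, exceeded. *FASN* was at -0.53 and *ELOVL6* at -0.37 on the log2 scale. For *ELOVL6*, 6 of 8 GLYHC cows lay below every CONHC cow, with ranges of 17.9 to 38.6 and 31.2 to 41.0 CPM. By the same measure, 1 of 7 GLYLC cows lay below every CONLC cow. In LC cows, GLYLC versus CONLC gave 0 of 10 called by edgeR and by DESeq2 on all cows. Over all genes, edgeR called 0.0628% and DESeq2 on all cows called 4 of the 15916. *ACACA* (log2 fold change -0.52, standard error 0.24, unadjusted p = 0.0379) and *ME1* (-0.55, standard error 0.26, unadjusted p = 0.0407) had an unadjusted p under 0.05, as had 5.65% of all genes, and their adjusted p were 0.849 and 0.851 in edgeR's test. Without CONLC cow 941 *ACACA* was at -0.32 and without GLYLC cow 544 at -0.73, and without CONLC cow 103 *ME1* was at -0.37. *FASN* was at -0.57, but at -1.41 without GLYLC cow 544. *ELOVL6* was at -0.42, and at -0.26 without GLYLC cow 912.

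The interaction, which is the HC minus LC difference in GLY cows less that in CON cows, was tested directly. EdgeR's quasi-likelihood test called 0 of the 10 genes and 0.0% of all genes, and an unadjusted p under 0.05 was found for 0 of the 10 genes and for 4.21% of all genes. DESeq2 on all cows also called 0 of the 10, and 1 of the 15916 genes. *SREBF1* had the interaction term with the smallest p of the set, 0.69 on the log2 scale (standard error 0.36, unadjusted p = 0.0655, adjusted p = 0.999). The terms of *ME1* and *ACACA* were 0.47 (standard error 0.37) and 0.36 (standard error 0.33). A different concentrate response of these genes in GLY and CON cows was therefore not shown, and the intervals of 2 standard errors, from -0.03 to 1.42 for *SREBF1* and from -0.27 to 1.21 for *ME1*, were wide.

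Adipocyte marker reads moved with the levels of *FASN* and *DGAT2* in some cows. The 4 cows above 15 CPM of summed adipocyte markers were GLYLC cow 544 with 83.0 CPM, CONLC cow 166 with 51.9, CONHC cow 7 with 22.3 and CONHC cow 144 with 19.6. *FASN* was at 129.4 CPM in cow 544, 83.2 in cow 166 and 63.0 in cow 7, the highest level of their respective groups, and at 39.3 CPM in cow 144. *DGAT2* was also highest of the group in cows 544, 166 and 7, at 60.3, 53.8 and 63.9 CPM, and was at 41.0 CPM in cow 144. *GPAM* was highest of the group in cows 544 and 166, but at 98.2 CPM in cow 7 and 94.6 CPM in cow 144 it was not. The fits were repeated without these 4 cows, an alternative added after the values were seen. The log2 fold change of *FASN* in HC versus LC was then 0.03 (standard error 0.26) in place of -0.38, and in GLY versus CON it was -0.83 (standard error 0.26, unadjusted p = 0.00334, adjusted p = 0.720, edgeR) in place of -0.55. In GLYLC versus CONLC it was -1.29 (standard error 0.35, unadjusted p = 0.0011, adjusted p = 0.270, edgeR) in place of -0.57. *ACACA* in HC versus LC was at -0.37 (adjusted p = 0.376, edgeR). *ME1* was hardly moved in size, at -0.70 (standard error 0.20), but its adjusted p was 0.103 (edgeR), so that the call was lost. With the log2 of the summed adipocyte markers as a covariate in all cows, *ME1* was at -0.74 with an adjusted p of 0.104 (edgeR).

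**Figure D3:**
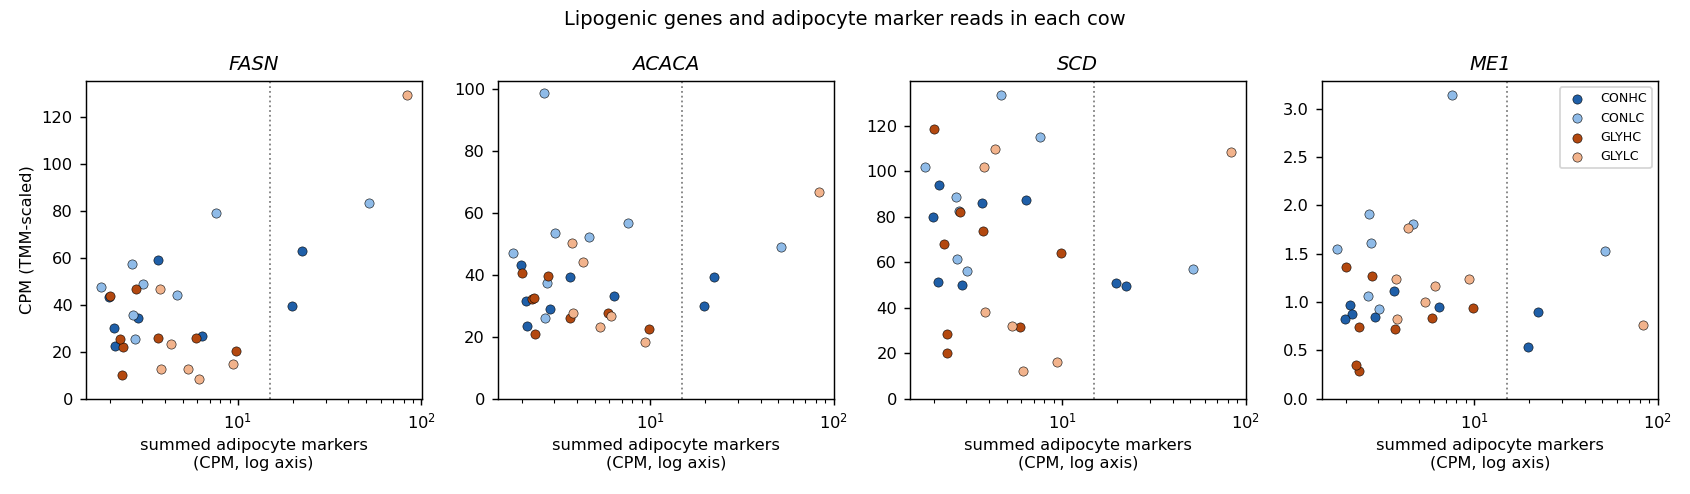
*FASN*, *ACACA*, *SCD* and *ME1* in CPM (linear axes from 0) against the summed CPM of *ADIPOQ*, *LEP*, *PLIN1* and *FABP4* (log axis) in each of the 31 cows, coloured by group; the dotted line marks 15 CPM. Of the 4 cows to the right of the line, 3 have the highest *FASN* level of their group, whereas their *ME1* levels lie within the range of the other cows and 2 of them, cows 544 and 144, have the lowest *ME1* level of their group.

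How the genes varied together between cows was examined with correlations of log2 CPM over the 31 cows for all 45 pairs, with 2-sided permutation tests. Benjamini-Hochberg adjusted p were under 0.05 for 7 pairs, all with positive r. These were the 6 pairs among *FASN*, *ACACA*, *SCD* and *ELOVL6*, with r between 0.55 and 0.73, and the pair of *GPAM* and *DGAT2*. The share of such pairs over all genes was not computed. *FASN* and *ACACA* had the highest r, 0.73 (rho 0.78, permutation p = 1e-05 for each, the smallest that the permutations can give, adjusted p = 0.00045), and r was 0.71 without the 2 cows farthest from the *FASN* median. This pair was positive in each group, with r of 0.79 in CONHC, 0.54 in CONLC, 0.46 in GLYHC and 0.87 in GLYLC. *FASN* and *SCD* had r of 0.67 over all cows (rho 0.53, adjusted permutation p = 0.0009 and 0.0181), but the relation was uneven between groups, with r of -0.27 in CONHC and 0.02 in CONLC beside 0.67 in GLYHC and 0.79 in GLYLC. The difference between groups was not tested. *FASN* and *ELOVL6* had r of 0.55 (rho 0.64, adjusted permutation p = 0.0096 and 0.00214) and r of -0.42 in CONHC, and with group means removed r was 0.45 (adjusted permutation p = 0.0695).

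*ACACA* and *SCD* had r of 0.63 (rho 0.67, adjusted permutation p = 0.00198 and 0.0009), with r of 0.00 in CONHC and 0.31 to 0.87 in the other groups. *ACACA* and *ELOVL6* had r of 0.62 (rho 0.63, adjusted permutation p = 0.00198 and 0.00214), with r of -0.22 in CONHC and 0.48 to 0.76 in the other groups. *SCD* and *ELOVL6* had r of 0.64 (rho 0.58, adjusted permutation p = 0.00198 and 0.00657) and were positive in each group, with r of 0.30 in CONLC and 0.93 in CONHC. For these pairs, r without the 2 farthest cows was 0.65, 0.69 and 0.49. *GPAM* and *DGAT2* had r of 0.49 (rho 0.51, adjusted permutation p = 0.0301 and 0.0241), which was 0.31 without the 2 cows farthest from the *GPAM* median, and within groups r lay between -0.05 in CONHC and 0.89 in GLYLC. The relation of *GPAM* with *DGAT2* therefore rested in part on few cows. For *SREBF1*, *MLXIPL*, *DGAT1* and *ME1*, 0 of the 9 pairs each had an adjusted permutation p under 0.05, and r of *SREBF1* with the enzymes and regulators of the set did not exceed 0.39 over all cows. Within GLYLC, r of *SREBF1* was 0.74 with *ACACA*, 0.73 with *SCD*, 0.63 with *ELOVL6* and 0.59 with *FASN*. In the other groups these r lay between -0.17 and 0.54. With group means removed, r of *SREBF1* was 0.46 with *ELOVL6* and 0.45 with *SCD* (adjusted permutation p = 0.0589 and 0.0636).

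**Figure D4:**
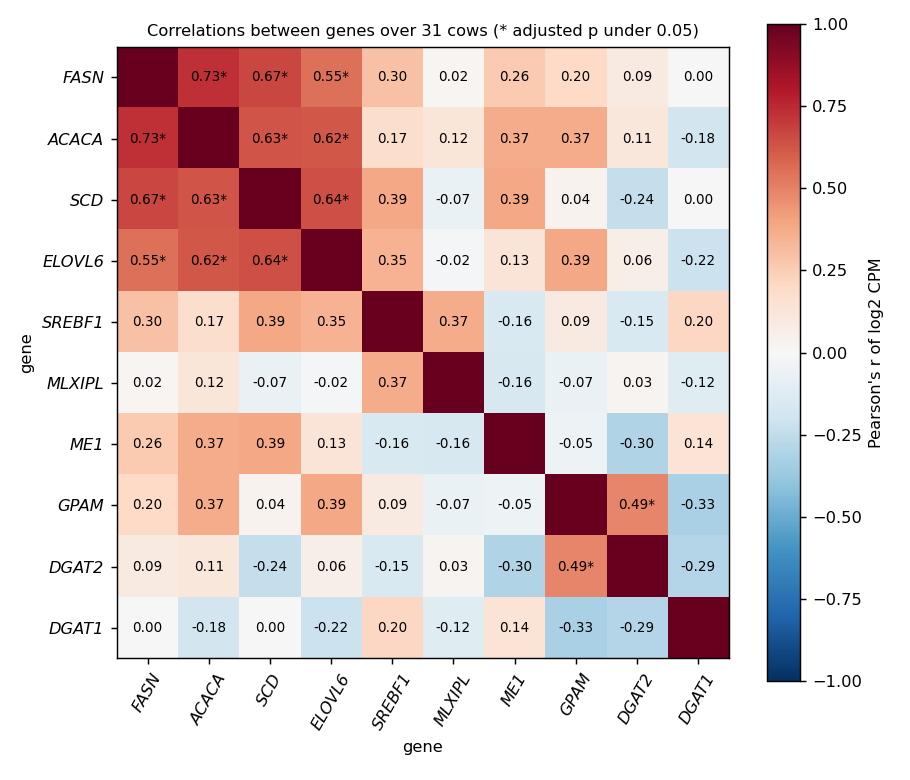
Pearson's r of log2 CPM between each pair of the 10 genes over the 31 cows (colour from blue at -1 to red at 1; asterisks mark a Benjamini-Hochberg adjusted permutation p under 0.05 over the 45 pairs). *FASN*, *ACACA*, *SCD* and *ELOVL6* form a block with r of 0.55 to 0.73, and outside it *GPAM* with *DGAT2* is marked.

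The other genes of the pathway were taken from 5 lists with 70 genes, of which 65 could be tested. *CIDEA*, *MOGAT3* and *PNPLA3* were not found in the table by symbol, and *ELOVL3* and *MOGAT2* had under 20 reads. In HC versus LC, 0 of the 65 genes were called by edgeR's quasi-likelihood test, beside 1.45% of all genes. An unadjusted p under 0.05 was found for 9 of the 65, close to the share of 13.7% over all genes. Of the 9, 7 had a positive and 2 a negative log2 fold change. Over all genes, 936 of the 2179 with such a p had a positive one. The median log2 fold change of the 65 genes was -0.02. The genes with the smallest p of each list follow, as log2 fold changes. Among 12 genes of chain lengthening and desaturation, *ELOVL5*, an elongase of polyunsaturated fatty acids, had 0.54 (standard error 0.18, unadjusted p = 0.00551, adjusted p = 0.164, edgeR) and the dehydratase *HACD3* had -0.16 (standard error 0.06). Among 15 genes of acyl activation and glycerolipid acylation, *AGPAT2*, which acylates lysophosphatidic acid, had 0.41 (standard error 0.16) and *LPIN2*, a phosphatidic acid phosphatase, had 0.23 (standard error 0.10).

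Among 9 genes of acyl-CoA and NADPH supply, *PGD*, whose enzyme yields NADPH as malic enzyme does, had -0.26 (standard error 0.10) in HC versus LC. Among 14 transcriptional regulators, *MLXIP*, a relative of *MLXIPL*, had 0.21 (standard error 0.09) and *TXNIP* had -0.19 (standard error 0.10). Among 15 genes of lipid droplets and lipolysis, the droplet protein gene *HSD17B13* had 0.43 (standard error 0.23) and *G0S2*, an inhibitor of triglyceride breakdown, had 0.67 (standard error 0.39). Adjusted p of the genes named here lay between 0.164 and 0.451 (edgeR). In GLY versus CON, 0 of the 65 genes were called, as were 0.0% of all genes. An unadjusted p under 0.05 was found for 7 of the 65, beside 3.92% of all genes (edgeR). Each of the 7 had a negative log2 fold change, while 394 of the 624 genes with such a p over all genes had a positive one.

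**Figure D5:**
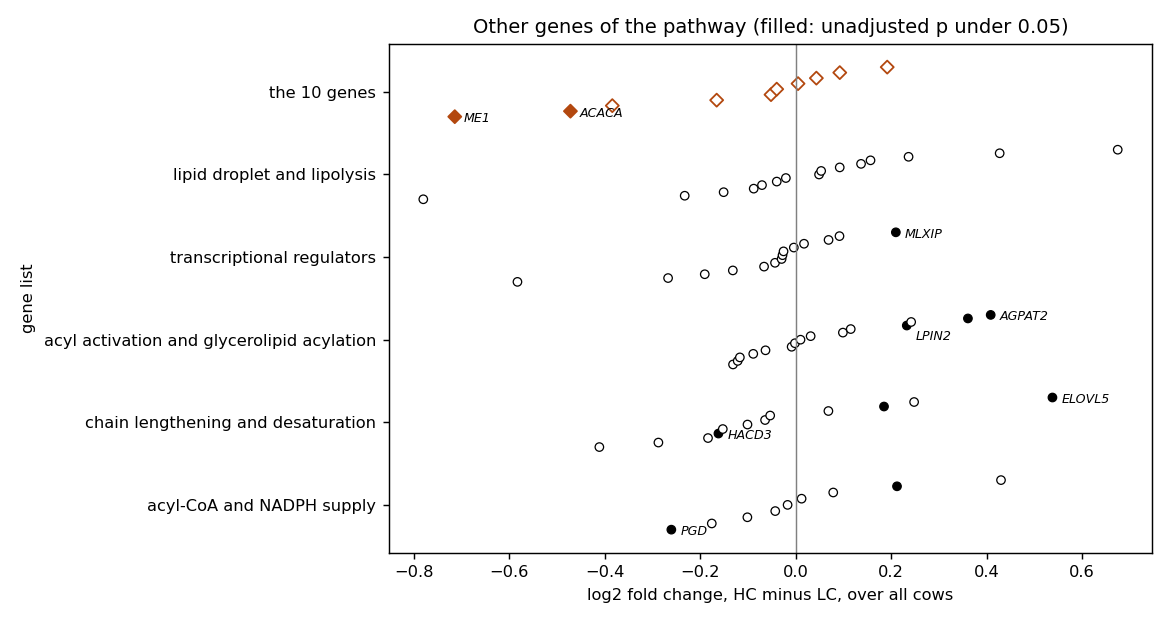
Log2 fold change in HC minus LC over all cows for the 65 other pathway genes in 5 lists (circles) and the 10 genes (diamonds), filled where the unadjusted p was under 0.05; labels mark genes named in the text. *ME1* and *ACACA* are filled on the negative side, and of the 9 filled circles 7 lie on the positive side. Over all genes tested, 936 of the 2179 with such a p were positive.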

How the data were processed

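Total RNA of 31 liver biopsies was analysed. The authors prepared stranded mRNA libraries, trimmed reads with Trim Galore, checked them with FastQC and aligned them with HISAT2 2.1.0 to the assembly UMD3.1. Reads with 1 position were assigned to genes by HTSeq 0.8.0. Whether strand was used in counting is not given in the sources used here. The authors deposited these raw counts of 24616 genes, in which reads shared by near-identical gene copies are not counted. A second deposited table of size-factor scaled values was not used. Each column was mapped to its cow by feeding group and animal number. Between 11675775 and 36675542 reads per cow were assigned. Cows are the replicates.

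Here the quasi-likelihood F test of edgeR 4.0.16 under R 4.3.3 was applied to the counts (TMM scaling, genes with at least 20 reads over all cows, Benjamini-Hochberg adjustment over 15916 genes). HC versus LC and GLY versus CON were fitted additively, and the other contrasts in a model of 4 groups. Standard errors were obtained from the log2 fold change and the F statistic. Correlations used log2 CPM (prior count 2) and 100000 permutations. Alternatives were other scalings, filters and covariates, DESeq2 1.42.0, fits of only the 2 compared groups and each cow left out in turn. The steps were tested on simulated counts. The genes, the lists and the tests were chosen with earlier results of these data known. All 10 genes were named in each comparison, and of each list the called genes and the 2 with the smallest p in HC versus LC, of which 1 gene is not reported here; further genes named under other observations were chosen after their values were seen. Coordinates and sequences are not used here. Figures and correlations were made in Python 3.11.15 (numpy 2.4.6, pandas 2.3.3, scipy 1.17.1, matplotlib 3.10.9).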

Additional observations from a re-analysis of the deposited data

Results flagged for a closer look

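Of 40 sets of 1 gene in 1 feeding group, 3 held a cow that stood apart from the others by Dixon's 95% criterion, and chance alone marks about 1 in 20 groups. *FASN* was at 129.4 CPM in GLYLC cow 544, and the next cow of the group was at 46.6 CPM. This cow also had the highest summed adipocyte markers of the study, 83.0 CPM, and their part in the *FASN* level was not tested. *ACACA* was at 98.7 CPM in CONLC cow 941, where the next cow was at 56.8 CPM. *ME1* was at 3.15 CPM in CONLC cow 103, where the next cow was at 1.91 CPM.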

How the results depend on the processing

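Of the 10 genes, 1 (*ME1*) was called in HC versus LC. This count was 0 at an adjusted p under 0.05, 0 with the log2 of assigned reads as a covariate (adjusted p of *ME1* 0.122), 0 without the 4 cows above 15 CPM of adipocyte markers and 0 with these markers as a covariate, the last pair of settings being added after the data were seen, and it ranged from 0 to 1 when each cow was left out. The cows whose absence ended the call were CONHC 41, 133 and 144, CONLC 60, 103 and 259, GLYHC 32 and 152 and GLYLC 42, with 0 genes called without each. The call was kept with RLE or upper-quartile scaling, no filter, filterByExpr, a robust fit, the muscle markers as a covariate (added later) and DESeq2 on all cows (adjusted p = 0.0217). In CONHC versus CONLC, DESeq2 on only the 2 groups called 1 gene of the 10 (*ACACA*) in place of 0, and 81 of 15033 genes. The causes were not tested. Counts of called genes over the whole table moved more. In HC versus LC there were 231, but 55 at an adjusted p under 0.05, 92 with assigned reads and 82 with adipocyte markers as a covariate, 134 without a filter, 434 and 388 in DESeq2 with and without independent filtering, and 83 to 404 when each cow was left out. The 32 calls of GLYHC versus GLYLC became 0 to 143 over the other settings, the 0 of CONHC versus CONLC 0 to 81 and the 10 of GLYLC versus CONLC 0 to 10.

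Log2 fold changes of the following genes changed sign or came close to it. In HC versus LC, *MLXIPL* was at -0.0023 with assigned reads and -0.0016 with adipocyte markers as a covariate and from -0.031 to 0.040 when each cow was left out. Without the 4 cows rich in adipocyte markers, *FASN* was at 0.034, *ELOVL6* at 0.0081 and *GPAM* at 0.082. With each cow left out, *ELOVL6* ranged from -0.12 to 0.035, *GPAM* from -0.11 to 0.0072, *DGAT2* from -0.015 to 0.094 and *FASN* from -0.46 to -0.0067, and *DGAT1* in GLY versus CON ranged from -0.11 to 0.0038. In GLYHC versus GLYLC, *FASN* was at 0.47 without the 4 cows, at 0.36 with adipocyte markers as a covariate and from -0.53 to 0.47 with each cow left out, and *SCD* ranged from -0.19 to 0.24. The 7 correlated pairs were 7 with a prior count of 0.5, with RLE scaling or without the 4 cows, and 6 with group means removed or without GLYLC cow 912. No paired analysis was possible because animal numbers are unique to a cow. The depth limits *ME1* most, with 4 to 52 reads per cow.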

Other observations

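The genes below were chosen after their values were seen. The correlation of *FASN* with each of the 65 other pathway genes over the 31 cows was computed with 2-sided permutation tests of Pearson's r and Benjamini-Hochberg adjustment over the 65. For 10 genes r was positive and for 3 it was negative at an adjusted permutation p under 0.05. The share of all genes that correlate with *FASN* in this way was not computed. These counts therefore do not show a relation particular to the pathway. Among the 10, *ACSL3* and *ACSL4* did not pass with rho (adjusted permutation p = 0.117 and 0.0736). Group means were not removed here, so that differences between feeding groups enter r and its p. *ACSS2*, which activates acetate in the cytosol, had the highest r with *FASN*, 0.83, followed by *THRSP*, a lipogenic regulatory protein, with 0.78 and *ACLY*, the ATP citrate lyase, with 0.73 (adjusted permutation p = 0.000217 for each). Their r without the 4 cows rich in adipocyte markers was 0.85, 0.75 and 0.64. Within groups, r with *FASN* was uneven, from 0.23 in CONHC to 0.89 in GLYLC for *ACSS2*, from 0.56 in CONHC to 0.81 in GLYLC for *THRSP* and from 0.21 in GLYHC to 0.83 in CONHC for *ACLY*. The 3 genes with negative r were *G0S2* (-0.49), *ELOVL2* (-0.49) and *ABHD5* (-0.50), with adjusted permutation p of 0.0294, 0.0293 and 0.0293.

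*ACSS2* also had the smallest p of the 65 genes in GLY versus CON, with a log2 fold change of -0.88 (standard error 0.23, unadjusted p = 0.000517), but its adjusted p over all genes was 0.590 (edgeR quasi-likelihood test, Benjamini-Hochberg). It was at 65.5 ± 22.5 CPM in CONHC (SD, n = 8) and 33.9 ± 12.8 CPM in GLYHC (SD, n = 8), and at 70.7 ± 23.6 CPM in CONLC (SD, n = 8) and 40.1 ± 28.2 CPM in GLYLC (SD, n = 7). The ranges overlapped, from 36.5 to 106.6 CPM in CONHC and from 14.5 to 50.7 CPM in GLYHC. *ACLY*, *FADS1*, *FADS2*, *PGD*, *SREBF2* and *TXNIP* were the other genes of the lists with an unadjusted p under 0.05 in GLY versus CON, with log2 fold changes of -0.30, -0.52, -0.54, -0.21, -0.17 and -0.28. GLYLC cow 912, which held the highest intestinal marker level, had the lowest *ACACA*, *ELOVL6*, *GPAM* and *DGAT2* of the 31 cows, at 18.3, 9.28, 41.8 and 26.4 CPM. The same cow had the highest *DGAT1*, 29.98 CPM, and the lowest summed hepatocyte markers, 93563 CPM, and their part in these levels was not tested.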
